A study of Mus musculus with 22 samples.

Results

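The 42 genes described here encode the enzymes of glycolysis, the pentose phosphate pathway and the tricarboxylic acid (TCA) cycle, together with the enzymes that bring pyruvate into mitochondria and a pair of glycerol phosphate dehydrogenases. They were taken by symbol from the 23420 genes of a count table of inguinal white adipose tissue (IWAT) of mice with breast tumors. The rule itself uses no measured value, but the members were chosen with earlier results of these data known. Of the 42, 17 belong to glycolysis and lactate formation, 6 to pyruvate entry, 12 to the TCA cycle, 5 to the pentose phosphate pathway and 2 to glycerol phosphate metabolism. The TCA cycle group, as counted below, includes Mdh1, the cytosolic malate dehydrogenase. A filter on low counts kept 41 of them among the 14458 genes tested. The gene left out was Eno1, an enolase, which had 1 read in the 22 libraries together.

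Glycolysis splits glucose into pyruvate in the cytosol, and lactate dehydrogenase turns pyruvate into lactate. The pyruvate dehydrogenase complex makes acetyl-CoA from pyruvate inside mitochondria, pyruvate carboxylase makes oxaloacetate from it, and the TCA cycle oxidises the acetyl group or exports citrate for fatty acid synthesis. In white adipocytes, glucose carbon is also used for lipid: the pentose phosphate pathway yields NADPH for fatty acid synthesis, and glycerol phosphate dehydrogenase yields the backbone of triglyceride.

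All mice were wildtype C57Bl/6 females, about 20 weeks old when cancer cells were injected. The 5 lean mice (numbered 0, 2, 3, 6 and 9) ate regular chow and the 6 obese mice (0, 1, 2, 3, 4 and 8) a high fat diet for 16 weeks. In each mouse the left pad received E0771 cells, a breast cancer line from a C57Bl/6 mouse, in PBS with Matrigel and gave tumor-associated IWAT, while the right pad received PBS with Matrigel alone and gave control IWAT, both collected 2 weeks after injection. The control pads thus came from animals that also carried a tumor, each pad gave 1 library, and the inguinal lymph node, the fat that bordered the tumor and the most peripheral fat were removed.

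Each library held between 5759775 and 8598108 counts on genes. Levels are given as CPM, in which each library's counts are scaled to the same total, with TMM factors for the composition of the library. The summed level of 10 adipocyte genes such as Adipoq and Plin1 was between 8326 and 17918 CPM in the lean libraries. It was between 15678 and 27534 CPM in obese control IWAT and between 2083 and 13601 CPM in obese tumor-associated IWAT. Adipocyte RNA was thus present in each library, at widely differing levels. Some libraries stood apart. The summed level of 15 skeletal muscle genes was 8595 CPM in the control pad of obese mouse 1, 780.4 CPM in the tumor-associated pad of obese mouse 8, 300.5 CPM in the control pad of obese mouse 3 and at most 87.2 CPM elsewhere, and B cell genes summed to 484 and 430.2 CPM in the control pads of obese mice 1 and 3. A list of 10 genes of germ cells and embryos, Rhox5 among them, which an earlier analysis had picked from these data, summed to 999.7, 509 and 441 CPM in the tumor-associated pads of obese mice 4, 2 and 0 and to at most 171 CPM in the other 3, while it was at most 85.7 CPM in obese control and at most 9.09 CPM in lean IWAT. Below, the muscle-rich libraries are the 3 pads named first for skeletal muscle and the germline-rich ones the tumor-associated pads of obese mice 4, 2 and 0. The control pads of obese mice 1 and 3 also had the highest T cell sums, 146 and 143 CPM. Leaving out the muscle-rich libraries therefore removes B and T cell signal as well. Calls in each comparison that uses the germline-rich libraries were also counted without them. Without the muscle-rich ones, calls were counted between control pads, and elsewhere mostly single members are named. Fits without some libraries are smaller, and the share of all genes called in them is not given below. In whole tissue, fewer cells of a type and less RNA per cell cannot be told apart.

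Per kilobase of exon, the scale on which genes can be compared, the most abundant members of lean control IWAT were Aldoa, an aldolase, with a mean level of 772 CPM per kb, Tkt, transketolase of the pentose phosphate pathway, with 642 CPM per kb, Pcx, pyruvate carboxylase, with 417 CPM per kb, Gpd1, cytosolic glycerol phosphate dehydrogenase, with 393 CPM per kb, and Ldha, the lactate dehydrogenase form that prevails in glycolytic cells, with 346 CPM per kb. In obese tumor-associated IWAT the order was different: Gapdh led with 448 CPM per kb, followed by Ldha with 410.4 CPM per kb, Aldoa with 370.4 CPM per kb and Tpi1 with 238 CPM per kb, whereas Tkt stood at 62.2 and Pcx at 40.6 CPM per kb. The 5 least abundant members tested in lean control IWAT, Eno3, Aldoc, Pfkm, Pdhx and Hk1, stood between 4.75 and 14.3 CPM per kb.

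Mice of a group differed along the whole list. Lean mouse 6 had the highest level of its group for 31 of the 41 members in control and for 34 in tumor-associated IWAT, and in the latter group lean mouse 2 had the lowest for 26. In obese tumor-associated IWAT, mouse 4 was the highest for 20 members and mouse 1 the lowest for 20. The members of a library are therefore not independent observations of its group.

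In lean mice, tumor-associated IWAT had lower levels of the pyruvate dehydrogenase complex and the TCA cycle enzymes than control IWAT. Of the 41 members, 17 were called lower and 0 higher (edgeR quasi-likelihood test, adjusted p under 0.05), beside 0.913% lower and 3.27% higher of all genes tested, and 29 had an unadjusted p under 0.05. The called genes were 5 of 6 of pyruvate entry, 8 of 12 of the TCA cycle, 2 of 5 of the pentose phosphate pathway (Tkt and Taldo1), 1 of 2 of glycerol phosphate (Gpd2) and 1 of 16 of glycolysis (Aldoa). Median log2 fold changes were -0.82 for pyruvate entry, -0.57 for the TCA cycle, -0.55 for the pentose phosphate pathway and -0.36 for glycolysis, beside 0.01 for all genes. In each of the 5 mice the tumor-associated pad was the lower one for 36 of the 41 members, beside 13.5% of all genes tested.

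**Figure D1:**
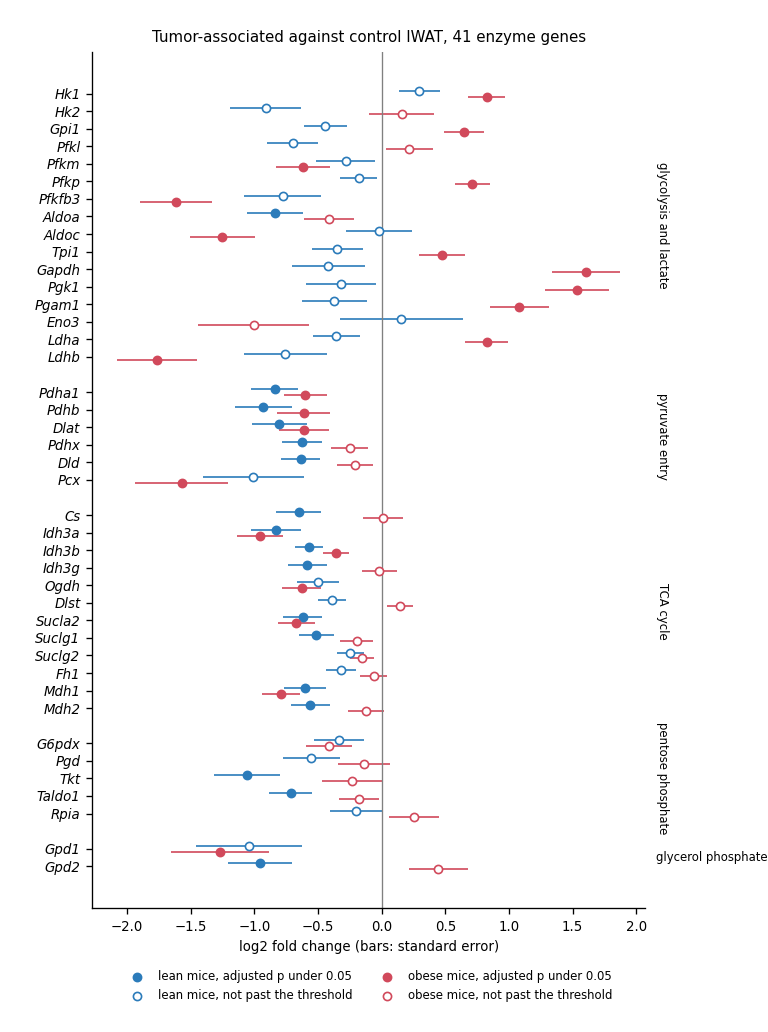
Change between the control and the tumor-associated pad as a log2 fold change (x axis, with standard errors) for the 41 members tested (y axis, by pathway) in 5 lean mice (blue) and 6 obese mice (red). Filled points passed an adjusted p under 0.05: the 17 filled blue points all lie left of 0, while 8 filled red points, all of glycolysis, lie right of 0 and 14 left of it.

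The pyruvate dehydrogenase complex is built of several subunits, and its first component is encoded by Pdha1 and Pdhb. In mice 0, 2, 3, 6 and 9, Pdha1 stood at 534, 746, 850.2, 1053 and 545 CPM in control and at 377, 306, 416, 567 and 415 CPM in tumor-associated IWAT, a log2 fold change of -0.84 ± 0.19 (SE, adjusted p = 0.0131). Pdhb stood at 232, 264, 331, 483 and 217 CPM in control and at 140.1, 94.0, 142, 277 and 148 CPM in tumor-associated IWAT of the same mice, a log2 fold change of -0.93 ± 0.22 (SE, adjusted p = 0.0225). Both genes were lower in the tumor-associated pad of 5 of 5 mice, and mouse 6 had the highest value in both groups, which overlapped. Dlat (-0.80), the acetyl transferase of the complex, Pdhx (-0.63), a subunit that binds Dld, and Dld itself (-0.64), the dihydrolipoamide dehydrogenase, fell as well on the log2 scale. Pcx had the largest log2 fold change of the group, -1.01 ± 0.39 (SE, adjusted p = 0.182), and did not pass the test.

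Of the TCA cycle, Idh3a, the catalytic subunit of the NAD-dependent isocitrate dehydrogenase, stood at 176, 247, 289.6, 318 and 219 CPM in control and at 132, 102, 130.1, 188 and 150.1 CPM in tumor-associated IWAT of mice 0, 2, 3, 6 and 9 (log2 fold change -0.83 with an SE of 0.20, adjusted p = 0.0218). Cs, citrate synthase, which starts the cycle, stood at 419, 533, 620.0, 757 and 448 CPM in control and at 329.6, 280.1, 345, 474 and 337 CPM in tumor-associated IWAT (log2 fold change -0.65 with an SE of 0.18, adjusted p = 0.0381). Each mouse had the lower value in its tumor-associated pad, with overlap between the groups. The other subunits of isocitrate dehydrogenase, Idh3b (-0.57) and Idh3g (-0.58), the succinyl-CoA ligase subunits Sucla2 (-0.62) and Suclg1 (-0.51) and the malate dehydrogenases Mdh1 (-0.60) and Mdh2 (-0.56) also fell on the log2 scale. Ogdh and Dlst of the oxoglutarate dehydrogenase complex, Suclg2 and Fh1, the fumarase, had log2 fold changes between -0.50 and -0.25 and did not pass.

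Tkt, which moves carbon between sugar phosphates, stood at 1882, 1456, 2233, 3446 and 1329.9 CPM in control and at 943, 558, 916, 1735 and 819 CPM in tumor-associated IWAT of mice 0, 2, 3, 6 and 9 (log2 fold change -1.06 with an SE of 0.26, adjusted p = 0.0232). Taldo1, transaldolase, stood at 225, 242, 336, 404 and 211 CPM and at 149, 136, 177, 233 and 167 CPM (log2 fold change -0.72 with an SE of 0.17, adjusted p = 0.0219). The NADPH-forming enzymes G6pdx (-0.33, the first step of the pathway) and Pgd (-0.55) did not pass, although Pgd did with the mouse as a block (adjusted p = 0.0303). Aldoa stood at 1111, 1191, 1652, 2198 and 887 CPM in control and at 693, 577, 838, 1164 and 665 CPM in tumor-associated IWAT (log2 fold change -0.84 with an SE of 0.22, adjusted p = 0.0323). All 3 were lower in the tumor-associated pad of 5 of 5 mice.

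The lean calls moved with single animals, although no member that was called changed its direction when a library was left out. Their number fell from 17 to 2 without the tumor-associated pad of mouse 0, to 1 without that of mouse 2, to 3 without that of mouse 3 and to 8 without that of mouse 9, and it was 9, 2 and 1 without the control pads of mice 2, 3 and 6. Without both pads of mouse 2 or of mouse 3 it was 0, without those of mouse 0 it was 5 and without those of mouse 9 it was 11. The share of all genes called in these smaller fits is not given here, so the fall cannot be read as particular to the members. Tumor-associated lean IWAT also held more signal of other cells: the 13 macrophage genes in the table summed to 2072 to 4453 CPM against 944 to 1959 CPM in control, 10 of the 13 being called higher, and 6 fibroblast genes summed to 12007 to 18014 CPM against 5452 to 8141 CPM. The adipocyte genes summed to 8326 to 14853 CPM against 13171 to 17918 CPM, with 0 of 10 called. Genes of brown or beige fat summed to 25.8 to 138 CPM against 61.3 to 265 CPM, with 0 of the 7 tested called. Ucp1, one of them, had 0 to 141 counts per library against 33 to 252. Their part in the enzyme differences was not tested.

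In obese mice, 8 of the 16 glycolysis genes tested were called higher and 4 lower in tumor-associated IWAT, while 0 members of pyruvate entry, the TCA cycle and the pentose phosphate pathway were higher and 4, 5 and 0 were lower. Over all 41 members this made 8 higher and 14 lower, that is 19.5% and 34.1%, beside 26.8% higher and 27.7% lower of all genes tested in the same comparison, so that the share of members called was near the background. Whether the pathways differed from each other was not tested. Median log2 fold changes were 0.35 for glycolysis, -0.61 for pyruvate entry, -0.18 for the TCA cycle and -0.18 for the pentose phosphate pathway, beside -0.02 for all genes. The groups did not overlap for 3 members that were higher and 12 that were lower, where 9.95% and 9.66% of all genes tested did not overlap.

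The 8 glycolysis genes that rose act at 8 points between glucose and lactate: Hk1 (hexokinase 1), Gpi1 (glucose phosphate isomerase), Pfkp (a phosphofructokinase), Tpi1 (triose phosphate isomerase), Gapdh, Pgk1 (phosphoglycerate kinase), Pgam1 (phosphoglycerate mutase) and Ldha. Gapdh, which oxidises glyceraldehyde phosphate, ranged over 189 to 277 CPM with a median of 209 CPM in obese control and over 317 to 1122 CPM with a median of 644 CPM in obese tumor-associated IWAT, a log2 fold change of 1.60 ± 0.27 (SE, adjusted p = 0.000101). Pgk1 ranged over 55.0 to 82.1 CPM with a median of 67.3 CPM in control and over 81.0 to 326 CPM with a median of 176 CPM in tumor-associated IWAT (log2 fold change 1.53 with an SE of 0.25, adjusted p = 9.06e-05). Both rose in 6 of 6 mice, and for Pgk1 the groups overlapped only through mouse 1, whose tumor-associated pad stood at 81.0 CPM, below the highest control value.

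Pgam1 ranged over 26.0 to 40.4 CPM with a median of 34.0 CPM in control and over 34.7 to 109.9 CPM with a median of 67.2 CPM in tumor-associated IWAT (log2 fold change 1.08 with an SE of 0.23, adjusted p = 0.000778). Ldha ranged over 351 to 529.7 CPM with a median of 445 CPM and over 501 to 1072 CPM with a median of 745 CPM (log2 fold change 0.82 with an SE of 0.17, adjusted p = 0.00054). Gpi1 ranged over 175 to 203 CPM with a median of 187 CPM and over 213 to 364 CPM with a median of 294 CPM (log2 fold change 0.65 with an SE of 0.16, adjusted p = 0.00199). These 3 rose in 6 of 6 mice, and only for Gpi1 did each tumor-associated library lie above each control library. Pfkp ranged over 87.6 to 109.6 CPM with a median of 103 CPM and over 104 to 222 CPM with a median of 176 CPM (log2 fold change 0.71 with an SE of 0.13, adjusted p = 0.000293). Hk1, which in adult tissues is widely expressed, ranged over 67.2 to 80.9 CPM with a median of 71.6 CPM and over 81.3 to 183 CPM with a median of 130.0 CPM (log2 fold change 0.82 with an SE of 0.15, adjusted p = 0.000194), with no overlap. Tpi1 changed least, by 0.48 ± 0.18 (SE, adjusted p = 0.032) in 5 of 6 mice, and without the 3 muscle-rich libraries its log2 fold change was 0.38 and was not called (adjusted p = 0.122).

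**Figure D2:**
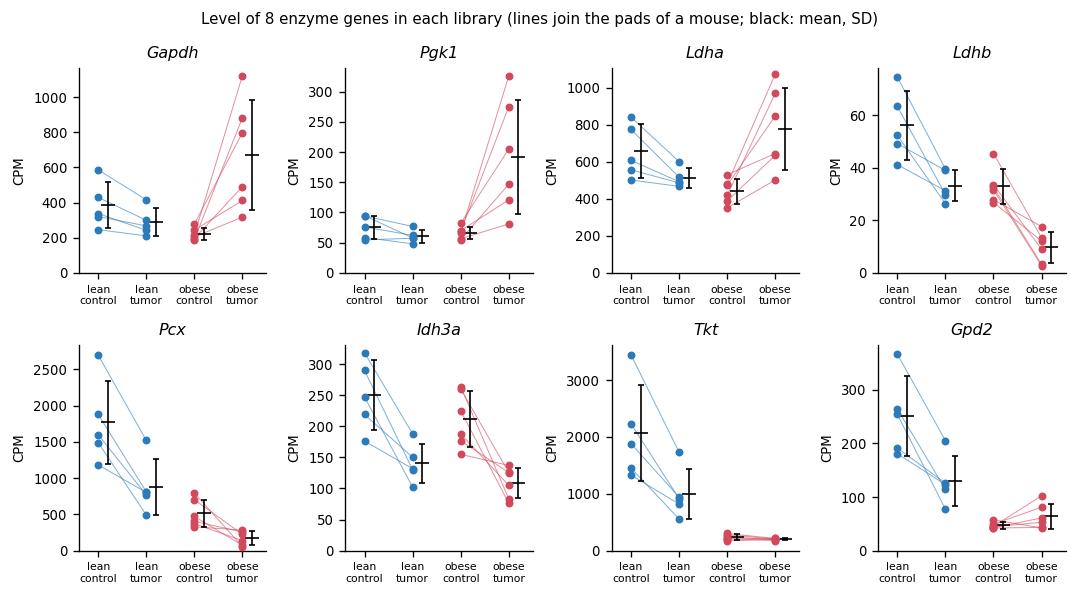
Level in CPM (y axis, from 0) of 8 members in each library of the 4 groups (x axis), with a line joining the pads of a mouse and the mean and SD in black. Gapdh, Pgk1 and Ldha rose along the lines of all 6 obese mice, Ldhb and Pcx fell along them, and Tkt was at most 302 CPM in obese IWAT and at least 558 CPM in lean IWAT.

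The steps that fell in obese tumor-associated IWAT included the other lactate dehydrogenase form. Ldhb, which prevails in oxidative tissue, ranged over 26.7 to 45.4 CPM with a median of 32.1 CPM in control and over 2.71 to 17.6 CPM with a median of 10.6 CPM in tumor-associated IWAT (log2 fold change -1.76 with an SE of 0.31, adjusted p = 0.000179). Pfkfb3, which makes the fructose bisphosphate that activates phosphofructokinase, ranged over 376 to 747 CPM with a median of 443 CPM and over 75.5 to 247 CPM with a median of 177 CPM (log2 fold change -1.61 with an SE of 0.28, adjusted p = 0.000154). Aldoc, a further aldolase, ranged over 8.62 to 19.7 CPM with a median of 11.9 CPM and over 2.30 to 8.28 CPM with a median of 5.11 CPM (log2 fold change -1.25 with an SE of 0.25, adjusted p = 0.000505). All 3 fell in 6 of 6 mice without overlap. Aldoa, the more abundant aldolase, ranged over 729 to 1177 CPM in control and over 629 to 703 CPM in tumor-associated IWAT, also without overlap. It was not called (log2 fold change -0.41, adjusted p = 0.0821), but was with the mouse as a block (adjusted p = 0.0242). Pfkm, the muscle form of phosphofructokinase, had a log2 fold change of -0.62 ± 0.21 (SE, adjusted p = 0.019), which was no longer called without the control pad of mouse 1, the library with the most skeletal muscle signal, where Pfkm was at 68.4 CPM against 23.1 to 29.2 CPM in the other obese control pads. Without all 3 muscle-rich libraries Pfkm was called again, at a log2 fold change of -0.39 (adjusted p = 0.0156). Eno3, the muscle enolase, stood at 66.9 CPM in that library and between 7.02 and 10.6 CPM in the others, with a log2 fold change of -1.01 ± 0.43 (SE, adjusted p = 0.0548) that was 0.01 without the 3 muscle-rich libraries.

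Pcx had the largest fall outside glycolysis. It ranged over 329 to 795 CPM with a median of 438 CPM in obese control and over 56.7 to 283 CPM with a median of 182 CPM in obese tumor-associated IWAT (log2 fold change -1.57 with an SE of 0.37, adjusted p = 0.00144). Pdhb ranged over 72.4 to 104 CPM with a median of 83.2 CPM and over 51.2 to 61.9 CPM with a median of 55.3 CPM (log2 fold change -0.61 with an SE of 0.21, adjusted p = 0.0171). Dlat ranged over 74.7 to 145 CPM with a median of 106 CPM and over 64.9 to 76.9 CPM with a median of 70.0 CPM (log2 fold change -0.61 with an SE of 0.20, adjusted p = 0.0144). These fell in 6 of 6 mice, as did Pdha1 with a log2 fold change of -0.60, and only Dlat had overlapping groups.

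In the TCA cycle group, which includes the cytosolic Mdh1, 5 members fell in 6 of 6 mice without overlap. Idh3a ranged over 155 to 264 CPM with a median of 206 CPM in control and over 76.2 to 137 CPM with a median of 115 CPM in tumor-associated IWAT (log2 fold change -0.96 with an SE of 0.18, adjusted p = 0.000303). Mdh1, the cytosolic malate dehydrogenase, ranged over 219 to 311 CPM with a median of 276 CPM and over 113 to 201 CPM with a median of 157 CPM (log2 fold change -0.79 with an SE of 0.15, adjusted p = 0.00032). Sucla2, the ADP-forming succinyl-CoA ligase subunit, ranged over 105 to 156 CPM with a median of 134 CPM and over 67.4 to 98.9 CPM with a median of 81.1 CPM (log2 fold change -0.67 with an SE of 0.14, adjusted p = 0.000755). With Ogdh (-0.63) and Idh3b (-0.36) these made up the calls. The cycle did not move as a block: Cs (0.01), Idh3g (-0.02), Fh1 (-0.06), Mdh2 (-0.12) and Dlst (0.14) had log2 fold changes near 0 and did not pass. Gpd1 fell by a log2 fold change of -1.27 ± 0.38 (SE, adjusted p = 0.00885) and in 5 of 6 mice, from 331 to 989.9 CPM with a median of 420.3 CPM to 75.1 to 379 CPM with a median of 245 CPM. No pentose phosphate gene was called (G6pdx was with the mouse as a block, adjusted p = 0.0378, and without the muscle-rich libraries, adjusted p = 0.0143), their log2 fold changes lying between -0.41 for G6pdx and 0.25 for Rpia, the ribose phosphate isomerase.

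The obese tumor-associated libraries differed widely, in tissue markers and in enzymes alike. By falling adipocyte sum the mice ranked 1, 8, 3, 2, 0 and 4, and Gapdh stood at 317, 412, 491, 797, 883 and 1122 CPM in that order, a rise at each step. Pcx stood at 283, 227, 257, 138, 73.5 and 56.7 CPM and Ldhb at 17.6, 9.00, 12.1, 13.3, 3.21 and 2.71 CPM. Over the same 6 libraries the proliferation genes summed to 555, 903, 847, 1067, 1490 and 2034 CPM, against 131 to 301 CPM in control, and the germline genes to 40.1, 102, 171, 509, 441 and 999.7 CPM, against 5.99 to 85.7 CPM. All 10 proliferation genes and 11 of 13 macrophage genes were called higher in this comparison, and 9 of 10 adipocyte, 5 of 6 epithelium and 4 of 5 endothelium genes lower. All 10 germline genes were called higher too, but they had been picked from these data, so their calls are no test. By mouse in the order above, macrophage genes summed to 5984, 5757, 5815, 3112, 5902 and 2331 CPM. Fibroblast genes summed to 14813, 17024, 14022, 10017, 17551 and 4814 CPM, so mouse 4 was the lowest for both lists. Whether tumor cells were present in these pads was not tested. The part that these cells and genes play in the enzyme levels was not tested either.

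**Figure D3:**
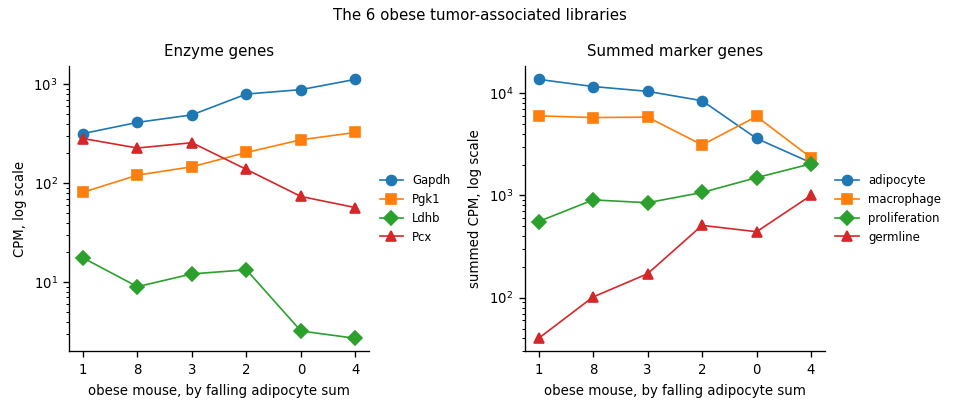
The 6 obese tumor-associated libraries (x axis, ordered by falling adipocyte sum) with the level of 4 members (left, CPM on a log scale) and the summed level of 4 marker lists (right, CPM on a log scale). Gapdh and Pgk1 were highest and Pcx and Ldhb lowest in mice 0 and 4, which had the lowest adipocyte and the highest proliferation sums.

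Without the tumor-associated pads of mice 0, 2 and 4, which had the most germline signal, 5 members remained higher and 7 lower. How many of all genes were called in that smaller fit is not given here. The 5 were, with their log2 fold changes, Hk1 (0.37), Pfkp (0.46), Gapdh (0.88), Pgk1 (0.80) and Ldha (0.43), while Gpi1, Tpi1 and Pgam1 no longer passed. The 7 were Pfkfb3 (-1.19), Aldoc (-1.05), Ldhb (-1.36), Pcx (-1.01), Idh3a (-0.72), Sucla2 (-0.49) and Mdh1 (-0.53). The median log2 fold change of glycolysis was then 0.02 in place of 0.35, and Hk2 went from 0.16 to -0.12, Cs from 0.01 to -0.19 and Rpia from 0.25 to -0.05, none of them called. Leaving out any 1 library or mouse kept between 7 and 8 members higher and between 13 and 16 lower.

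Regulatory sequence was examined for the glycolysis genes that moved together. The motif ACGTG is a form of the core that hypoxia-inducible factors recognise. It was searched on both strands (as ACGTG or CACGT) in the 250 bases before each RefSeq start on GRCm38.p6. The other form of the core, GCGTG, was not searched, so a window without a match can still hold it. CACGTG, the E-box of Myc and related factors, was searched in the same windows. In it ACGTG and CACGT overlap and count as 2 matches. Promoters were given for 40 of the 42 members, Gpd1 and Idh3a being those without one here. ACGTG was present before 7 of 17 glycolysis genes (41.2%), 2 of 6 of pyruvate entry, 3 of 11 of the TCA cycle and 0 of 5 of the pentose phosphate pathway, beside 18.5% of all genes with a promoter. A gene with more starts has more windows in which a match can fall. Counted by window, 10 of the 28 of glycolysis (35.7%) held ACGTG, beside 16.6% of all 32851. Other features of the windows, such as base composition, were not matched. The motif was present before 3 of the 8 glycolysis genes that rose in obese mice (Ldha, Pgk1 and Pgam1), before 2 of the 4 that fell (Pfkfb3 and Pfkm), and before Aldoa and Hk2, which were not called. The windows of 3 genes that rose and hold the motif, of Gapdh, which rose most and does not, and of Pcx, which fell and does, are shown with the matches in capitals.
Ldha, chr7:46845554-46845803, plus strand: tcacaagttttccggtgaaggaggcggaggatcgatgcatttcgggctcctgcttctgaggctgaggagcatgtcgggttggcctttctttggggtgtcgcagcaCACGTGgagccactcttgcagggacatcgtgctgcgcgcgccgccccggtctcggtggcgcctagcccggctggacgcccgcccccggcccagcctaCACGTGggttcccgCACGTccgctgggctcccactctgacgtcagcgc
Pgk1, chrX:106186850-106187099, plus strand: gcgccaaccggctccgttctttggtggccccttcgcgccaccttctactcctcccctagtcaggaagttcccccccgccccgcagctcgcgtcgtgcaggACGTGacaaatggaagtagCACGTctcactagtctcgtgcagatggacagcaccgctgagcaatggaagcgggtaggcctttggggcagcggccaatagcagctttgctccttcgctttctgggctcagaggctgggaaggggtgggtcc
Pgam1, chr19:41911621-41911870, plus strand: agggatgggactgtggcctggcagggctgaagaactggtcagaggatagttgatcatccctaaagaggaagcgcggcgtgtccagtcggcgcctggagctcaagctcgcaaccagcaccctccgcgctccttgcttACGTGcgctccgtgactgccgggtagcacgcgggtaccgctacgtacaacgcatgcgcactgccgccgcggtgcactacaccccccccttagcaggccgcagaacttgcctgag
Gapdh, chr6:125165774-125166023, minus strand: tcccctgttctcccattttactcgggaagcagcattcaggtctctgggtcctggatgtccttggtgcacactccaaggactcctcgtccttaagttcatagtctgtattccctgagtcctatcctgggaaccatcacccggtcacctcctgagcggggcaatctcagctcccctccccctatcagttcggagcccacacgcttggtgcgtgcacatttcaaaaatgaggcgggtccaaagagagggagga
Pcx, chr19:4510222-4510471, plus strand: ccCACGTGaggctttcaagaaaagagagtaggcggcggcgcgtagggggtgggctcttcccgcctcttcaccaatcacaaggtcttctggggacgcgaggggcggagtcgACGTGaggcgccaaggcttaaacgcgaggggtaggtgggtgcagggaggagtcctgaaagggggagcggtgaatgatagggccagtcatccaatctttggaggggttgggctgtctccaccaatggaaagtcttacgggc
Ldha and Pcx each have a further start in the table, whose windows hold no match. The Ldha window holds 5 matches at 3 places, 2 of them CACGTG, the Pgk1 window 2 and the Pgam1 window 1, and the Pcx window 3 at 2 places. None of these 5 windows overlaps an annotated exon. A match is a description of the letters only, and binding was not measured.

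Control IWAT of obese mice had lower levels of many of these enzymes than that of lean mice. In obese against lean control IWAT 25 of 41 members were called lower and 0 higher, beside 7.53% lower and 9.54% higher of all genes tested. The genes lower were all 6 of pyruvate entry, 7 of 12 of the TCA cycle, 7 of 16 of glycolysis, 4 of 5 of the pentose phosphate pathway and Gpd2. Median log2 fold changes were -1.21 for pyruvate entry, -0.82 for the pentose phosphate pathway, -0.43 for the TCA cycle and -0.38 for glycolysis, beside 0.04 for all genes.

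The largest change was that of Tkt, which stood at 1882, 1456, 2233, 3446 and 1329.9 CPM in the lean control pads and over 172 to 302 CPM with a median of 229 CPM in the obese ones, a log2 fold change of -3.13 ± 0.26 (SE, adjusted p = 2.98e-07). Gpd2, the mitochondrial glycerol phosphate dehydrogenase, stood at 181, 254, 264, 367 and 191 CPM against 42.2 to 57.5 CPM with a median of 45.0 CPM (log2 fold change -2.42 with an SE of 0.25, adjusted p = 4.06e-06). Pdhb stood at 232, 264, 331, 483 and 217 CPM against 72.4 to 104 CPM with a median of 83.2 CPM (log2 fold change -1.83 with an SE of 0.22, adjusted p = 1.52e-05). For none of the 3 did any obese control library reach the lowest lean one. Cs had a log2 fold change of -0.93 ± 0.17 (SE, adjusted p = 0.000769), from 419, 533, 620.0, 757 and 448 CPM to 236 to 345 CPM with a median of 276 CPM, again without overlap. Hk2, the insulin-responsive hexokinase of fat and muscle, stood at 259, 213, 312, 487 and 153 CPM against 79.7 to 148 CPM with a median of 112 CPM (log2 fold change -1.36 with an SE of 0.27, adjusted p = 0.00161). Pcx (-1.79), Pdha1 (-1.51), Aldoc (-1.07), Pgd (-0.90), Taldo1 (-0.82) and Rpia (-0.82) fell as well. G6pdx, by contrast, had a log2 fold change of 0.17 ± 0.19 (SE, adjusted p = 0.59), Hk1 of 0.07 and Pfkm of 0.03.

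**Figure D4:**
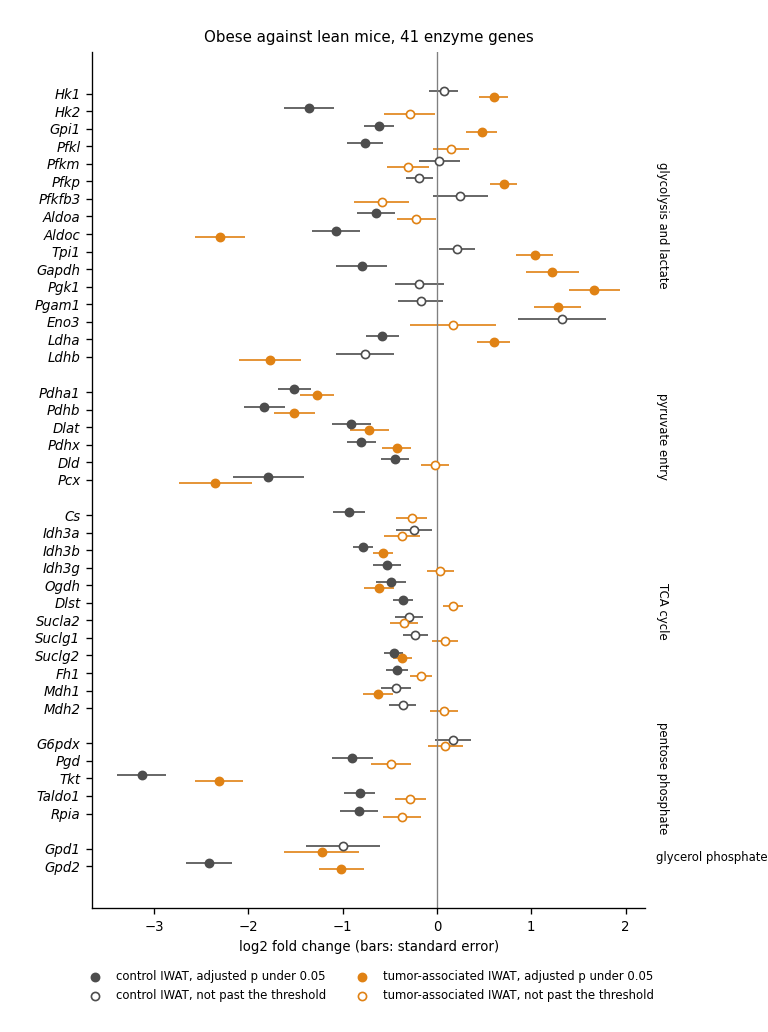
Log2 fold change of obese against lean mice (x axis, with standard errors) for the 41 members tested (y axis, by pathway) in control IWAT (grey) and tumor-associated IWAT (orange). Filled points passed an adjusted p under 0.05: the 25 filled grey points lie left of 0, with Tkt at -3.13, and 8 filled orange points of glycolysis lie right of 0.

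Without the 3 libraries with the most skeletal muscle signal, 2 of which are obese control pads, the number called lower was 15, and without the control pad of lean mouse 6, which had the highest level of 31 members, it was 16. How many of all genes were called in these smaller fits is not given here. The 10 members lost without the muscle-rich libraries were Gpi1, Pfkl, Aldoa, Gapdh, Ldha, Dld, Idh3g, Ogdh, Dlst and Fh1, while all calls of the pentose phosphate pathway and 5 of 6 of pyruvate entry held. The log2 fold changes of the 10 then lay between -0.75 (Gapdh) and -0.32 (Dlst), against -0.80 and -0.36 with all libraries. Genes of brown or beige fat moved with the diet too. Their summed level was 61.3 to 265 CPM in lean control and 24.8 to 49.0 CPM in obese control IWAT, 6 of the 7 tested being lower, and Ucp1, their defining gene, had 33 to 252 counts per library in lean control against 1 to 9 in obese control IWAT. The adipocyte genes summed to 13171 to 17918 CPM in lean and 15678 to 27534 CPM in obese control IWAT. Their part in the enzyme levels was not tested.

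Between the tumor-associated pads of obese and lean mice, 8 members were higher and 14 lower, beside 24.7% and 22.4% of all genes tested. The 8 were Hk1, Gpi1, Pfkp, Tpi1, Gapdh, Pgk1, Pgam1 and Ldha, and this comparison shares its 6 obese tumor-associated libraries with the one against obese control IWAT. Obese mice of the study bore larger tumors than lean ones, and diet and tumor size cannot be told apart here. Pgk1 had a log2 fold change of 1.67 ± 0.27 (SE, adjusted p = 9.02e-05), Pgam1 of 1.28 ± 0.25 (SE, adjusted p = 0.000384), Gapdh of 1.22 ± 0.28 (SE, adjusted p = 0.00158) and Tpi1 of 1.03 ± 0.19 (SE, adjusted p = 0.000306). Those lower were led by Pcx (-2.35), Tkt (-2.31), Aldoc (-2.30), Ldhb (-1.77), Pdhb (-1.51) and Pdha1 (-1.27). Without the 3 libraries with the most germline signal 4 members were higher (Pfkp, Tpi1, Pgk1 and Pgam1) and 10 lower. Other tissue markers moved in this comparison too: all 10 proliferation genes and 5 of 13 macrophage genes were higher, whereas all 6 epithelium, 5 of 7 brown or beige fat and 4 of 10 adipocyte genes were lower and 1 adipocyte gene was higher. All 10 germline genes were higher as well, but they had been picked from these data after their values were seen. The epithelium genes, which in this tissue can come from the mammary gland, summed to 708 to 1382 CPM in lean and 163 to 369.6 CPM in obese tumor-associated IWAT, and to 283 to 717 CPM in obese control IWAT. Their part in the enzyme levels was not tested.

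The response to the tumor was compared directly between the diets as the obese minus the lean log2 fold change. The study reports larger tumors in obese than in lean mice, so diet and tumor size cannot be told apart in this comparison. This difference was called for 8 of 41 members, all higher in obese mice, and for 0 lower, beside 2.58% higher and 2.34% lower of all genes tested, and 19 members had an unadjusted p under 0.05. Of the 8, 6 were of glycolysis. Gapdh differed by 2.02 ± 0.39 (SE, adjusted p = 0.0337), its log2 fold change being -0.42 in lean and 1.60 in obese mice. In lean mice 0, 2, 3, 6 and 9 Gapdh went from 320.5, 338, 429.7, 587 and 246 CPM in control to 267, 242, 299.8, 416 and 211 CPM in tumor-associated IWAT. Pgk1 differed by 1.86 ± 0.37 (SE, adjusted p = 0.0373) and went from 54.6, 76.1, 94.6, 94.2 and 58.5 CPM in control to 57.3, 62.0, 57.7, 76.8 and 48.0 CPM in tumor-associated IWAT of lean mice 0, 2, 3, 6 and 9. Pgam1 differed by 1.45 ± 0.34 (SE, adjusted p = 0.0396), with 34.0, 34.6, 43.9, 49.8 and 25.3 CPM and 24.1, 27.7, 32.2, 36.9 and 23.9 CPM in the lean pads. Ldha differed by 1.18 ± 0.25 (SE, adjusted p = 0.0373), with 607, 556, 774, 841 and 501 CPM and 493, 486, 517, 601 and 467 CPM in the lean pads. In lean mice none of the 4 was called, and Gapdh, Pgam1 and Ldha were lower in 5 of 5 tumor-associated pads.

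Gpi1 differed by 1.09 ± 0.23 (SE, adjusted p = 0.0373), with 222, 259.9, 318, 420.1 and 226 CPM in lean control and 201, 173, 209, 281 and 199.7 CPM in lean tumor-associated IWAT. Pfkp differed by 0.89 ± 0.20 (SE, adjusted p = 0.0373), with 119, 106, 118, 139 and 94.8 CPM and 105, 106, 93.2, 111 and 93.3 CPM. Gpd2 differed by 1.40 ± 0.34 (SE, adjusted p = 0.0404), with 123, 77.4, 114, 205 and 126 CPM in lean tumor-associated IWAT and 42.5 to 102 CPM with a median of 57.1 CPM in obese tumor-associated IWAT. Its level thus stayed lower in obese mice while its tumor change was the higher one. Dlst, the succinyl transferase of the oxoglutarate dehydrogenase complex, differed by 0.53 ± 0.15 (SE, adjusted p = 0.0484). It stood at 155, 189, 219, 249 and 183 CPM in lean control and 142, 133, 155, 179 and 150.0 CPM in lean tumor-associated IWAT, and ranged over 141 to 175 CPM with a median of 152 CPM in obese control and over 148 to 201 CPM with a median of 169.9 CPM in obese tumor-associated IWAT. For these 4 genes the lean log2 fold change was negative and the obese one positive, and Gpd2 was called lower in lean mice and not called in obese mice (0.44, and -0.03 without the 3 germline-rich libraries).

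The adjusted p-values of these differences lay close to the threshold, between 0.0337 and 0.0484, and the calls moved with single libraries. Their number was 0 without the tumor-associated pad of lean mouse 0, 3 or 9, without the control pad of lean mouse 3 or 6, without the tumor-associated pad of obese mouse 0 and without the control pad of obese mouse 0 or 4. It was 1 without the control pad of lean mouse 2 or the tumor-associated pad of obese mouse 2, 2 without the tumor-associated pad of lean mouse 2, 3 without the control pad of lean mouse 0, 5 without the control pad of obese mouse 3 or 8, and 14 without the tumor-associated pad of obese mouse 1. It was also 0 without the 3 libraries with the most germline signal, where the difference of Gapdh was 1.31 and that of Pgk1 1.14. The share of all genes called in these smaller fits is not given here, so these counts cannot be read as particular to the members. The difference of Dlst was also not called without the muscle-rich libraries (0.50, adjusted p = 0.0611). With the mouse as a block, which pairs the pads of an animal, 13 members were called, Hk2, Pfkl, Tpi1, Cs and Tkt being added, and with DESeq2 13 were higher and 1 lower.

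Several steps are catalysed by enzyme forms encoded by separate genes, and the ratio of their counts within a library does not depend on library size. For Ldha to Ldhb the log2 ratio was 3.54 ± 0.21 (SD, n = 5) in lean control, 3.95 ± 0.24 (n = 5) in lean tumor-associated, 3.73 ± 0.22 (n = 6) in obese control and 6.53 ± 1.45 (n = 6) in obese tumor-associated IWAT. It rose by 2.79 ± 1.41 (SD over mice) in obese mice, in 6 of 6 animals (exact sign-flip permutation test, p = 0.03125, the smallest that 6 pairs allow, adjusted p = 0.0781), and by 0.41 ± 0.27 in lean mice, in 5 of 5 animals (exact sign-flip permutation test, p = 0.063, the smallest that 5 pairs allow, so that this test cannot reach 0.05). The rise was larger in obese mice by 2.39 (exact permutation test over 462 divisions of the mice, p = 0.00433, adjusted p = 0.0189 over 35 tests of 7 ratios). Without the 3 germline-rich libraries the rise in the other 3 obese mice was 1.72 ± 0.50 (SD) and the difference between diets 1.31 (exact permutation p = 0.0179, the smallest that 3 against 5 mice allow, adjusted p = 0.063). Without the 3 muscle-rich libraries that difference was 3.46 (exact permutation p = 0.0179, adjusted p = 0.0521). The obese pairs then left were those of mice 0, 2 and 4, which gave the germline-rich libraries. Without the germline-rich libraries the pairs left were those of mice 1, 3 and 8. The 2 values thus rest on different obese mice. The obese tumor-associated values ran from 4.81 to 8.49, above each of the other 16 libraries. Ldhb itself stood at 41.1, 52.3, 63.2, 74.4 and 49.2 CPM in lean control and 31.2, 26.3, 29.8, 39.5 and 38.9 CPM in lean tumor-associated IWAT (log2 fold change -0.76 with an SE of 0.33, adjusted p = 0.245), without overlap but not past the test.

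Pfkp to Pfkm, the platelet against the muscle form of phosphofructokinase, had a log2 ratio of 1.72 ± 0.68 (SD, n = 6) in obese control and 2.91 ± 0.40 (n = 6) in obese tumor-associated IWAT, the lowest control value, 0.36, being that of the muscle-rich library. Obese mice exceeded lean mice in the tumor change by 1.09 (exact permutation p = 0.00433, adjusted p = 0.0189), and by 0.87 without that mouse, by 0.97 without the muscle-rich and by 1.20 without the germline-rich libraries. The last 2 values rest on different obese mice, 0, 2 and 4 and then 1, 3 and 8. In lean mice 0, 2, 3, 6 and 9 Pfkm stood at 27.5, 31.8, 36.0, 35.0 and 32.4 CPM in control and 24.8, 25.0, 25.8, 30.6 and 27.5 CPM in tumor-associated IWAT. Hk2 to Hk1, the insulin-responsive against the widely expressed hexokinase, fell from 1.93 ± 0.66 (n = 5) in lean control to 0.58 ± 0.35 (n = 6) in obese control IWAT (difference -1.35, exact permutation p = 0.00216, adjusted p = 0.0189). In tumor-associated IWAT it was 0.74 ± 0.51 (n = 5) in lean and -0.03 ± 0.20 (n = 6) in obese mice (difference -0.77, exact permutation p = 0.00216, adjusted p = 0.0189). In lean tumor-associated IWAT Hk2 stood at 147, 105, 146, 259.8 and 97.8 CPM, lower than control in 5 of 5 mice, while Hk1 went from 82.0, 64.9, 64.5, 66.0 and 69.2 CPM to 83.8, 87.5, 91.8, 87.3 and 74.9 CPM, higher in 5 of 5. The ratio was near 1 to 1 in obese tumor-associated IWAT, where Hk2 ranged over 80.8 to 150.2 CPM with a median of 126 CPM and Hk1 over 81.3 to 183 CPM with a median of 130.0 CPM.

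Aldoc to Aldoa moved in opposite directions in the diets: the log2 ratio rose by 0.78 ± 0.38 (SD) in 5 of 5 lean mice and fell by 0.89 ± 0.73 (SD), lower in 5 of 6 obese mice, a difference of -1.67 (exact permutation p = 0.00433, adjusted p = 0.0189). Without the germline-rich libraries the difference was -1.20, the ratio being lower in 2 of 3 obese mice, and without the muscle-rich libraries it was -2.14. These 2 values rest on different obese mice, 1, 3 and 8 and then 0, 2 and 4. Aldoc stood at 33.4, 25.0, 23.7, 24.3 and 27.6 CPM in lean control and 26.4, 20.4, 30.2, 25.5 and 29.8 CPM in lean tumor-associated IWAT, whereas Aldoa fell there, as given above. Gpd1 to Gpd2 was 2.17 ± 0.17 (n = 5) in lean and 3.43 ± 0.81 (n = 6) in obese control IWAT (difference 1.26, exact permutation p = 0.00649, adjusted p = 0.0253). Gpd1 stood at 889, 964, 1216, 1565 and 981 CPM in lean control and 568, 283, 475, 767 and 639 CPM in lean tumor-associated IWAT (log2 fold change -1.04 with an SE of 0.42, adjusted p = 0.197), without overlap but not past the test. Over the 35 tests 10 had an adjusted p under 0.05 and 14 an unadjusted one. Without the germline-rich libraries 0 had an adjusted p under 0.05 and 11 an unadjusted one, the smallest adjusted p being 0.063. Without the muscle-rich libraries these were 0 and 12, with a smallest adjusted p of 0.0521, by the same exact permutation tests. Control pads include no germline-rich library, so there Hk2 to Hk1 kept its exact permutation p of 0.00216 over 11 mice, and only its adjusted p rose. Where libraries were left out, fewer mice raised the smallest p possible. These counts therefore do not show whether the ratios depend on those libraries. Suclg2 to Sucla2, the GTP-forming against the ADP-forming ligase subunit, gave no adjusted p under 0.05 in its 5 tests.

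**Figure D5:**
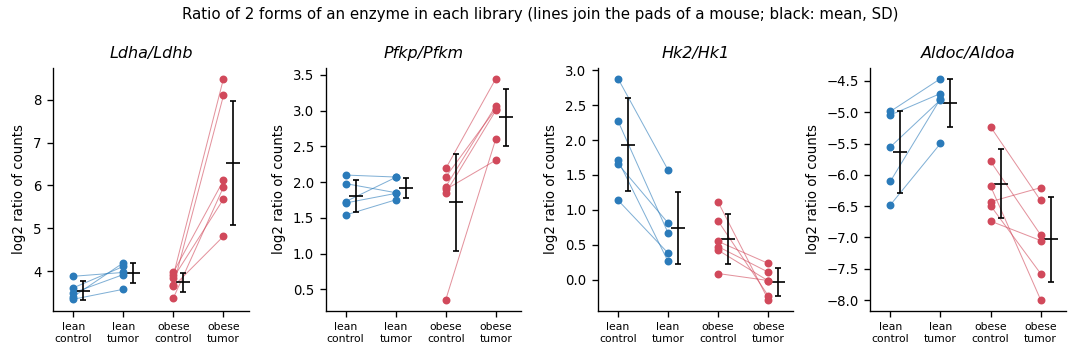
Log2 ratio of the counts of 2 enzyme forms (y axis, not starting at 0) in each library of the 4 groups (x axis), with a line joining the pads of a mouse and the mean and SD in black. Ldha to Ldhb lay between 4.81 and 8.49 in the 6 obese tumor-associated libraries and at or below 4.19 in all others, and Hk2 to Hk1 had its highest mean, 1.93, in lean control IWAT.

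Other genes of the same pathways were counted from a list. Of 19 further glycolysis genes tested, 1 was higher and 0 lower in lean tumor-associated IWAT, and 4 were higher and 5 lower in obese tumor-associated IWAT, beside 3.27% and 0.913% of all genes in lean and 26.8% and 27.7% in obese mice. Hk3, the hexokinase of leukocytes, rose by 1.35 ± 0.28 (SE, adjusted p = 0.00898) in lean and by 1.65 ± 0.25 (SE, adjusted p = 4.67e-05) in obese mice, Pfkfb1 changed by -1.30 ± 0.23 (SE, adjusted p = 0.000172) and Pgm1, a phosphoglucomutase, by 1.16 ± 0.11 (SE, adjusted p = 8.79e-07) in obese mice. Pkm, the pyruvate kinase of most tissues, which was singled out after its values were seen, ranged from 321 to 393 CPM in obese control and from 488 to 953 CPM in obese tumor-associated IWAT (log2 fold change 1.07 with an SE of 0.20, adjusted p = 0.000265), and its change differed between the diets by 1.54 ± 0.30 (SE, adjusted p = 0.032). In lean mice it went from 443 to 1088 CPM in control to 369 to 747 CPM in tumor-associated IWAT and had a log2 fold change of -0.47 ± 0.22 (SE, adjusted p = 0.291).

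Of 22 further TCA cycle and linked genes, 0 were higher and 6 lower in lean tumor-associated IWAT, among them Sdha (log2 fold change -0.63 with an SE of 0.15, adjusted p = 0.021) and Sdhb (log2 fold change -0.54 with an SE of 0.11, adjusted p = 0.0081) of succinate dehydrogenase. In obese tumor-associated IWAT 4 were higher and 9 lower, beside the 26.8% and 27.7% of all genes, led by Pck1, the cytosolic PEP carboxykinase (log2 fold change -1.57 with an SE of 0.51, adjusted p = 0.0138), Got1, an aspartate aminotransferase (log2 fold change 1.41 with an SE of 0.22, adjusted p = 5.77e-05), and Slc25a1, the mitochondrial citrate carrier (log2 fold change -1.30 with an SE of 0.40, adjusted p = 0.01). Of 9 further pyruvate entry genes, 0 were higher and 1 lower in lean mice (Pdp2, a phosphatase that activates the complex, -0.72) and 1 was higher and 4 lower in obese mice. The one higher was Pdk3, a kinase that inactivates pyruvate dehydrogenase (log2 fold change 1.11 with an SE of 0.24, adjusted p = 0.000814), and those lower included both subunits of the mitochondrial pyruvate carrier, Mpc1 (-0.77) and Mpc2 (-0.97). Of 8 further pentose phosphate genes, 0 and 6 were called lower in lean and obese mice, among them Prps1 (-0.93), Shpk (-0.93) and H6pd (-0.72), and 0 higher. Of 3 further glycerol phosphate genes, 0 were called in lean mice and 3 were lower in obese mice: Gpam (-0.82), Gk5 (-0.65) and Gpd1l (-0.52). Between obese and lean control IWAT, the further genes called higher and lower were 4 and 2 of glycolysis, 1 and 4 of pyruvate entry, 2 and 10 of the TCA cycle, 3 and 0 of the pentose phosphate pathway and 0 and 1 of glycerol phosphate, beside 9.54% and 7.53% of all genes.

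Among 15 regulators of these pathways, 0 were higher and 1 lower in lean tumor-associated IWAT (Esrra, log2 fold change -0.40 with an SE of 0.11, adjusted p = 0.045), and 5 were higher and 6 lower in obese tumor-associated IWAT, beside 26.8% and 27.7% of all genes. Myc rose by 2.37 ± 0.38 (SE, adjusted p = 7.37e-05), Egln3, an oxygen-dependent hydroxylase of hypoxia-inducible factors, by 1.88 ± 0.49 (SE, adjusted p = 0.00352), and Ppargc1a, a coactivator of mitochondrial genes, fell by a log2 fold change of -1.52 ± 0.39 (SE, adjusted p = 0.00281). Hif1a, singled out after its values were seen, had a log2 fold change of 0.17 ± 0.20 (SE, adjusted p = 0.837) in lean and 0.88 ± 0.18 (SE, adjusted p = 0.000553) in obese mice.

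Some members share sequence with other genes, so that reads may have been split or dropped in counting. The share of 50-base stretches of the exons that occur in another annotated gene was 53.9% for Pgk1, 36.2% for Pgam1, 26.0% for Eno1, 25.1% for Gapdh, 21.0% for Ldhb, 16.9% for G6pdx, 16.0% for Suclg2, 15.8% for Gpi1, 12.9% for Pdha1 and 11.4% for Pdhb, and below 10% for the others. The level of these genes is therefore uncertain. Gpi1, Pfkm, Pfkp, Aldoa, Tpi1, Pdha1, Idh3b, Gpd1 and Gpd2 overlap a gene on the opposite strand, and the strand setting of the counting is not given in the sources used here.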

How the data were processed

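RNA-seq after depletion of ribosomal RNA covered both pads of 5 lean and 6 obese female mice, 22 libraries in all. The authors cleaned reads with prinseq, aligned them with STAR 2.4.0f to mm10 and used HTSeq, and the values they deposited are raw counts, 1 row per gene symbol. Which annotation was used and whether strand was respected are not given in the sources used here. Groups and mouse numbers came from the labels. The 5 summary lines that HTSeq appends were set aside; among them, reads outside genes were 38.5% to 48.8% of those listed. No 2 libraries of a group agreed within counting noise (smallest chi-square per degree of freedom 5.95).

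The fit used edgeR 4.0.16 in R 4.3.3 (TMM normalization, default filter on low counts, quasi-likelihood test, Benjamini-Hochberg adjustment over 14458 genes, threshold 0.05). All 4 groups entered 1 fit without a block; the study's methods name DESeq2 and no block. A standard error (SE) is the log2 fold change over the root of its F value. With 5759775 to 8598108 counts on genes in a library, 1 CPM stands for fewer than 10 counts. Each library is 1 pad of 1 animal, and since both pads come from the same animal the mouse pairs them: their deviations from the means of their groups correlated at over 0.1 in 5 of 5 lean pairs, with a median of 0.508, and in 4 of 6 obese pairs, with a median of 0.168. Ratios of enzyme forms used counts plus a prior count of 2, with two-sided exact permutation tests, by sign flips within mice or over 462 divisions of the mice. A ratio of enolases was left out because Eno1 was under 10 counts in each library.

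The members and all gene lists were chosen with earlier results of these data known. Members given in full are, in each pathway, the 3 of largest change among those called in obese mice, the 2 in lean mice, the 1 between control pads, any called for the difference between diets, and the forms in the ratios described; of other pathway genes, the 3 of largest change per tumor comparison are named, except 1 that is not reported here. The alternatives were DESeq2 1.42.0, upper-quartile and RLE normalization, no filter or a minimum of 10 counts per library, fits of the compared groups alone, the mouse as a block, other prior counts, ratio tests without pairing, and each library and each mouse left out. Leaving out the 3 muscle-rich and the 3 germline-rich libraries was added after the data were seen. The scripts were tested on simulated counts in which known genes were changed. Exon lengths and overlaps come from GENCODE M21 and promoters from RefSeq, both on GRCm38.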

Additional observations from a re-analysis of the deposited data

Results flagged for a closer look

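A library stood far from the others of its group in 7 of 164 combinations of a member and a group, by Dixon's test at the 95% level, where chance gives about 1 in 20. The control pad of obese mouse 1 gave 2 of them, Pfkm at 68.4 CPM and Eno3 at 66.9 CPM, and is the library whose skeletal muscle genes summed to 8595 CPM; the part of muscle in these values was not tested. The tumor-associated pad of obese mouse 4 gave 2, Dld at 194 CPM and Idh3g at 137 CPM. The remaining values were Hk1 at 82.0 CPM in the control pad of lean mouse 0, Ldhb at 45.4 CPM in the control pad of obese mouse 2 and Dlat at 180.2 CPM in the tumor-associated pad of lean mouse 6.

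The response to the tumor differed between obese and lean mice for 8 members by the test of the difference itself, on the log2 scale by 2.02 for Gapdh, 1.86 for Pgk1, 1.45 for Pgam1, 1.40 for Gpd2, 1.18 for Ldha, 1.09 for Gpi1, 0.89 for Pfkp and 0.53 for Dlst. None of these 8 was called without the 3 obese tumor-associated libraries with the most germline signal. Diet and tumor size, which the study reports as larger in obese mice, cannot be told apart in these differences.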

How the results depend on the processing

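No member and no ratio that passed the test with all libraries changed its direction under any alternative. Of the members' log2 fold changes that did not pass, 13 changed sign without the germline-rich libraries, 3 without the muscle-rich ones, 6 with upper-quartile normalization, 3 with at least 10 counts in every library and 15 when single libraries or mice were left out. The number of members whose tumor change was called higher in obese than in lean mice (8) was 13 with DESeq2, 13 with the mouse as a replicate block, 1 without a filter on low counts and 0 without the 3 germline-rich libraries; the number called lower (0) was 1 with DESeq2, with at least 10 counts in every library and without the 3 muscle-rich libraries. The block, which pairs the pads of a mouse, ended 2 other calls, Mdh1 in lean mice (adjusted p = 0.0619) and Pfkm in obese mice (adjusted p = 0.0605), added Hk2 (0.000925), Pfkl (0.00659), Dlst (0.023) and Pgd (0.0303) in lean mice and Aldoa (0.0242) and G6pdx (0.0378) in obese mice, with the adjusted p in brackets, and moved no other count by over 1.5 times. Without the muscle-rich libraries 15 members were lower in obese than in lean control IWAT. Without the germline-rich libraries 5 members were higher and 7 lower in obese tumor-associated IWAT, 4 were higher than in lean tumor-associated IWAT, and the glycolysis median was 0.020 in obese mice and 0.54 for the difference between diets. The cause was not tested.

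Tested without pairing, by an exact permutation of libraries, 7 log2 ratios passed that had not: Hk2/Hk1 in lean (-1.19) and obese mice (-0.61), Pfkl/Pfkm (0.74), Pfkp/Pfkm (1.19) and Suclg2/Sucla2 (0.51) in obese mice, and Ldha/Ldhb in lean (0.41) and obese mice (2.79).

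With single libraries or mice left out, the number lower in lean mice ranged from 0 to 20, the difference between diets from 0 to 14 higher and from 0 to 2 lower, obese against lean control from 16 to 29 lower and from 0 to 1 higher, and the pentose phosphate median in lean mice from -0.75 to -0.36. Between control pads, the log2 ratio Hk2/Hk1 ranged from -1.55 to -1.11 and Gpd1/Gpd2 from 1.06 to 1.44. Between tumor-associated pads, Hk2/Hk1 ranged from -0.89 to -0.56, Pfkp/Pfkm from 0.88 to 1.11, Aldoc/Aldoa from -2.35 to -1.99 and Ldha/Ldhb from 2.18 to 2.92. For the difference between diets, Pfkl/Pfkm ranged from 0.87 to 1.33, Pfkp/Pfkm from 0.87 to 1.24, Aldoc/Aldoa from -1.89 to -1.49, Ldha/Ldhb from 2.03 to 2.71 and Gpd1/Gpd2 from -2.11 to -1.03, the last passing only without pads of obese mouse 1. A diet comparison of ratios has at most 6 mice a side. Eno1 had 1 count in all and did not enter the fit; the cause was not tested.

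Without the germline-rich libraries, and likewise without the muscle-rich ones, 0 of the 10 ratio tests that had passed still did. The ratios between control pads use no germline-rich library, so without those libraries only their adjusted p changed. In the tests that lost libraries, fewer mice raised the smallest p possible. In the order germline-rich and muscle-rich left out, between control pads Hk2/Hk1 was -1.35 and -1.20 and Gpd1/Gpd2 1.26 and 1.53. Between tumor-associated pads Hk2/Hk1 was -0.63 and -0.82, Pfkp/Pfkm 0.87 and 1.11, Aldoc/Aldoa -1.89 and -2.18 and Ldha/Ldhb 1.58 and 2.66. For the difference between diets Pfkl/Pfkm was 1.42 and 0.91, Pfkp/Pfkm 1.20 and 0.97, Aldoc/Aldoa -1.20 and -2.14 and Ldha/Ldhb 1.31 and 3.46. In each of these pairs of values the first rests on obese mice 1, 3 and 8 and the second on obese mice 0, 2 and 4.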
